A study of Mus musculus with 27 samples.

Results

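The genes described here are 54 of the 5486 genes in the deposited table. They were taken by a rule on gene names, which was chosen with earlier results of these data known. They are the A, B and E cyclins, the kinases, inhibitors and phosphatases of the Cdk, Cdkn and Cdc series, the E2F factors, the origin and helicase genes of the Orc, Mcm and Gins series, the Aurora, Bub and Polo-like kinases, the centromere proteins (Cenp), the condensin subunits (Ncap) and the kinesins (Kif). A name is no proof of a role in division: many kinesins carry cargo in resting cells, Cdc42-binding proteins act on the actin cytoskeleton, and Cdc40 belongs to the spliceosome. These genes are kept and are described apart. The 54 genes include 1 cyclin (Ccnb1) and 0 Aurora or Bub genes.

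Cells enter division when cyclin-dependent kinases inactivate the retinoblastoma protein and release the E2F factors, which switch on the genes of DNA synthesis. INK4 inhibitors (Cdkn2c, Cdkn2d) block Cdk4 and Cdk6, while the Cip/Kip inhibitors (Cdkn1a, Cdkn1c) act on a wider set of cyclin-Cdk complexes. Origins are then licensed and fired by Orc, Mcm and Gins proteins, and the genes of mitosis, from cyclin B1 to the centromere proteins, are expressed later in the cycle. Granulocyte-macrophage progenitors (GMPs) are themselves a rapidly dividing population, so they are a cycling reference and not a resting one.

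The samples were acute myeloid leukemia (AML) cells and normal GMPs from mice. GMPs of mT/mG mice, which carry membrane-targeted fluorescent proteins, were transduced with a retrovirus encoding the MLL-AF9 fusion oncogene and GFP and grown in sublethally irradiated primary recipients. Blasts of one primary recipient make up a clone, and clones 1, 3 and 19 were passed to non-conditioned secondary recipients and sorted at full infiltration of the bone marrow (BM) as live GFP+ mTomato+ cells. The donor blasts of clones 1 and 3 came from BM and those of clone 19 from spleen, so for clone 19 the clone and the donor organ cannot be told apart. Each clone gave 3 libraries of endosteal AML cells, released by crushing the metaphysis, and 3 of central AML cells, flushed from the diaphysis, and the region and its handling cannot be told apart either. The other 9 libraries were GMPs from the whole BM of wild-type mice matched to the others in age and sex, in 3 control sets (A, B and C). All AML cells carry the oncogene, the reporter and a history of transplantation that the GMPs lack. Each clone is a single leukemia, so 3 clones are 3 leukemias. The title of a GMP library holds the numbers of 3 mice, and whether it is RNA of 1 mouse or of a pool is not settled. Metaphysis and diaphysis were cut from the same bones, so endosteal and central libraries of a clone can share mice, but the columns do not say which do, and the 6 libraries of a clone were tested as independent. The p-values therefore measure the spread between libraries, which may in part be technical.

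The libraries held 5.60 to 13.4 M counted reads, and 21.97 to 28.3% of them fell on genes in the table. QuantSeq reads the 3′ end of poly(A) RNA, so its values, in CPM (reads of a gene scaled to the size of the library), do not depend on transcript length. The table was preselected by the authors at a false discovery rate under 0.05, and cell cycle genes outside it were not analysed here. Markers fixed for GMPs were present in each GMP library at a summed 13211 to 27652 CPM over 9 of 10 genes, against 2151 to 6933 CPM in AML, and the MLL-AF9 markers (7 of 7 genes) were at 141 to 249 CPM in GMPs and 508 to 1667 CPM in AML. Library 18 (clone 1, endosteal) and libraries 25 and 26 (GMP set C) stood apart in several of the genes below, and values without them are given where they matter. In library 18 the megakaryocyte markers (4 of 6 in the table) summed to 117 CPM, against 9.46 CPM in the lowest library of clone 1, and the late neutrophil markers (8 of 9) ranged from 61.0 to 294 CPM in GMPs and from 525 to 3066 CPM in AML. The part of these markers in the results was not tested. In these bulk samples, fewer dividing cells and less RNA per dividing cell cannot be told apart.

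Promoters are shown for 6 genes that were called between clone 1 and the other clones: the replication genes Mcm3 and Gins3 (lower in clone 1) and Mcm7 (higher), and the mitosis genes Ccnb1, Cenpf and Kif4 (higher). The sequences are from RefSeq on GRCm38.p6 and run from 250 bases before to 50 bases after the annotated start. RefSeq promoters matched 43 of the 54 genes by symbol, and the other 11 had no match. Capitals mark all matches, on either strand, of the CCAAT box (CCAAT), of the cell cycle homology region (CHR, TTTGAA) and of the E2F site in 4 spellings (TTTGGCGC, TTTCCCGC, TTTCGCGC and TTTGCCGC).
Mcm3, chr1:20820263-20820562, minus strand: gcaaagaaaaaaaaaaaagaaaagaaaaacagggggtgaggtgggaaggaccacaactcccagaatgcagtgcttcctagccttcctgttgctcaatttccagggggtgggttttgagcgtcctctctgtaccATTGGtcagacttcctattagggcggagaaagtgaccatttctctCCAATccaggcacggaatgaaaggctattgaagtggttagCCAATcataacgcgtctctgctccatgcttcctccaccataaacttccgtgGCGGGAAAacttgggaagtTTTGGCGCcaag
Gins3, chr8:95633309-95633608, plus strand: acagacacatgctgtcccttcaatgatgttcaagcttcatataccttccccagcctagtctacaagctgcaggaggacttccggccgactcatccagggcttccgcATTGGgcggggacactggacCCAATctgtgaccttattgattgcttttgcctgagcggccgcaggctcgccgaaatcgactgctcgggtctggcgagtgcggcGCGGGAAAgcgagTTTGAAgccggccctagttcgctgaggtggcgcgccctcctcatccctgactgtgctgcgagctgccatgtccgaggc
Mcm7, chr5:138171834-138172133, minus strand: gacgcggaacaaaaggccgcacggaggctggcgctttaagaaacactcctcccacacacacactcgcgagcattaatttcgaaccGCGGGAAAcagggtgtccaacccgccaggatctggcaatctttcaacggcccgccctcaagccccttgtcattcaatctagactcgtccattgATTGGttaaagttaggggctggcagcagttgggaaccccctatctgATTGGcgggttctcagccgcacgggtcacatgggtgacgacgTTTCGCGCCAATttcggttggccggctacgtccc
Ccnb1, chr13:100786437-100786736, minus strand: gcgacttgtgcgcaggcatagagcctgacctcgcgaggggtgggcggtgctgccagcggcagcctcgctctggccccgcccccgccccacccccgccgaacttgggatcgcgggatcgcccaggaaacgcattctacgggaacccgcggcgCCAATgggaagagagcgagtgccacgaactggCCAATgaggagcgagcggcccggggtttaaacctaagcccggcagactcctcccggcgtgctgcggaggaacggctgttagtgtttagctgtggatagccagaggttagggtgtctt
Cenpf, chr1:189688037-189688336, minus strand: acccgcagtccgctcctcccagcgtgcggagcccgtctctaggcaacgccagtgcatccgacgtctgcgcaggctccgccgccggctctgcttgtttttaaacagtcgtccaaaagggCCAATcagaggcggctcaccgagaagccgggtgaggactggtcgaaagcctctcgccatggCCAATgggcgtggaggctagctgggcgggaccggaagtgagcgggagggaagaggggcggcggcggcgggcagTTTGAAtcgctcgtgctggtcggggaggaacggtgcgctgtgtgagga
Kif4, chrX:100625815-100626114, plus strand: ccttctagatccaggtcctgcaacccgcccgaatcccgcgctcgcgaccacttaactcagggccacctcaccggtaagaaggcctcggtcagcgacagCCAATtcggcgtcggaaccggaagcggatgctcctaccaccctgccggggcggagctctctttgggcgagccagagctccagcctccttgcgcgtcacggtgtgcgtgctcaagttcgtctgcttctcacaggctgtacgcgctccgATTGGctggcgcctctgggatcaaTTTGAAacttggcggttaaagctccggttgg

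The E2F site was found in all 3 replication promoters shown and in none of the 3 mitosis promoters shown, and a CHR was found in those of Gins3, Cenpf and Kif4. All 6 sequences shown hold at least 2 CCAAT boxes, and in Mcm7 the letters of an E2F site and of a CCAAT box overlap. A second promoter of Mcm7 (chr5:138171217-138171516), not shown, held 0 E2F sites and 1 CCAAT box. The 6 genes are a selection: the mitosis genes Cenpe, Ncapd3 and Ncapg2 were also higher in clone 1 and are not shown. The replication gene Gins2, lower in clone 1, had no matching promoter. The promoter of Cenpe held 1 CCAAT box, 0 CHR and 0 E2F sites. That of Ncapg2 held an E2F site and a CHR but no CCAAT box. Ncapd3 had a CHR in 1 of its promoters, and no E2F site or CCAAT box. Among all 32851 promoters of the table, 2.26% held the E2F site, 17.9% the CHR and 37.4% the CCAAT box. Of the 43 genes with a promoter, 9 held the E2F site in at least 1 of their promoters: Mcm3, Mcm7, Mcm8, Orc1, Gins3, E2f2, E2f7, Ncapg2 and Cdc42bpa. The first 5 are all origin and helicase genes with a promoter here. The CHR was found in 12 genes and the CCAAT box in 26. A match describes letters only, and it is not a measured binding site.

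The first comparison asked how the 18 AML libraries differed from the 9 GMP libraries. At an adjusted p under 0.05 (limma on log2(CPM + 1), adjusted over all 5160 genes tested), 26 of the 54 genes were higher in AML and 19 lower, where 50.7% and 37% of all genes tested were higher and lower. The share called, 45 of 54, was thus close to the 87.7% of all genes, as a table preselected for change gives. At a log2 fold change of 1 or more, 11 genes were higher and 0 lower, against 18.2% and 12.4% of all genes. The median log2 fold change was 0.22 for the 54 genes and 0.33 for all genes tested. TMM scaling moved the median of all genes to 0.18 and that of the 54 genes to 0.04, and gave 8 higher and 2 lower at that size. No overlap between AML and GMP libraries was seen for 6 genes (Kif1b, Cdc14b, Cdkn1c, E2f2 and Kif21b, with all AML libraries above, and Cdk4, with all below), against 14.5% of all genes tested (8.14% with AML above and 6.32% with AML below).

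**Figure D1:**
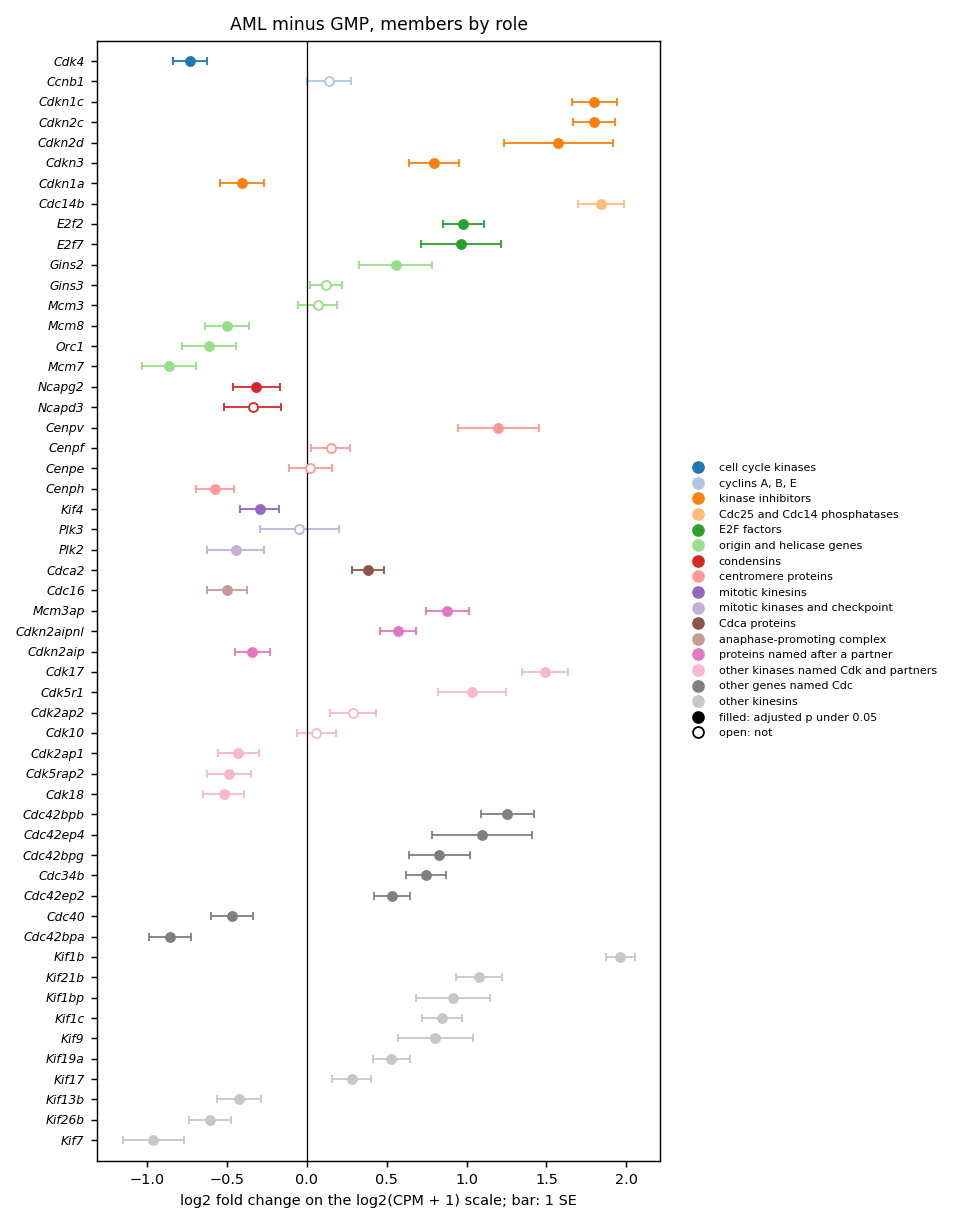
Log2 fold change of AML against GMP (horizontal axis, log2(CPM + 1) scale) for the 54 genes, ordered and coloured by role, with bars for 1 SE and filled points for an adjusted p under 0.05. Kif1b lies farthest to the right (1.96), 4 of the 5 inhibitors lie right of 0, and 0 genes reach -1.

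At the entry into the cycle, the kinase was lower in AML and most inhibitors were higher. Cdk4, the kinase that starts the inactivation of the retinoblastoma protein (chr10:127063534-127067920 on mm10), ranged from 111 to 202 CPM in GMPs with a median of 122 CPM. In AML it ranged from 68.5 to 96.4 CPM with a median of 84.0 CPM. Every AML library thus lay below every GMP library, and the medians of the 3 clones, at 78.0, 85.7 and 86.6 CPM for clones 1, 3 and 19, were close to each other. Cdk4 was lower in AML by a log2 fold change of -0.73 (SE 0.11, adjusted p = 8.8e-07). Each clone was lower than GMPs on its own, by -0.77, -0.74 and -0.69.

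Of the 5 inhibitor genes measured, which act on different kinases, 4 were higher in AML and 1 lower. Among all genes tested, 50.7% were higher and 37% lower. Of the 5, only Cdkn2c and Cdkn2d are INK4 inhibitors of Cdk4 and Cdk6. Cdkn2c, the INK4 inhibitor p18 (chr4:109660876-109667189), had a lowest, median and highest level of 3.42, 4.22 and 8.48 CPM in GMPs. It stood at 20.2, 28.2 and 40.3 CPM in clone 1, at 6.43, 10.9 and 17.7 CPM in clone 3 and at 17.7, 21.7 and 25.3 CPM in clone 19. All libraries of clones 1 and 19 were above all GMP libraries, whereas clone 3 overlapped them at its lower end. The log2 fold change against GMPs was 1.80 (SE 0.13, adjusted p = 5.0e-12), and by clone it was 2.33, 1.10 and 1.97 for clones 1, 3 and 19.

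Cdkn2d, the INK4 inhibitor p19 (chr9:21288410-21291407), ranged from 4.47 to 66.4 CPM in GMPs (median 38.7 CPM) and from 14.3 to 159 CPM in AML (median 91.9 CPM). The GMP and AML libraries overlapped, and the lowest values were those of library 18 in AML and of libraries 25 and 26 in GMPs. Cdkn2d was higher in AML by 1.58 (SE 0.34, adjusted p = 0.00019), and by 1.15 (adjusted p = 2.6e-07) without libraries 18, 25 and 26. Cdkn3, a phosphatase that removes the activating phosphate of Cdk2, was also higher, with a log2 fold change of 0.80 (SE 0.16, adjusted p = 6.5e-05), a median of 9.46 CPM in GMPs and a median of 17.1 CPM in AML.

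Cdkn1c, the Cip/Kip inhibitor p57 (chr7:143458339-143461050), an imprinted gene known for holding hematopoietic stem cells in quiescence, was listed at 0 in 6 of 9 GMP libraries and reached 0.467 CPM in the highest. It was detected in each AML library, at 1.02 to 3.42 CPM in clone 1 (median 1.72 CPM), at 0.596 to 2.45 CPM in clone 3 (median 1.2 CPM) and at 5.75 to 8.30 CPM in clone 19 (median 6.86 CPM). Clone 19 lay above every library of the other clones and AML above every GMP library, but levels in AML remained low. The log2 fold change against GMPs was 1.80 (SE 0.14, adjusted p = 1.7e-11), and clone 19 exceeded the other clones by 1.65 (SE 0.20, adjusted p = 4.4e-06). A fold change from a level so near 0 depends on the pseudocount of 1.

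Cdkn1a, the Cip/Kip inhibitor p21 (chr17:29090976-29100727) and a classical target of p53, was the only inhibitor lower in AML over all clones, and it divided the clones. Its lowest, median and highest levels were 37.7, 54.1 and 71.6 CPM in GMPs. Clone 1 stood at 40.6, 65.7 and 76.3 CPM, clone 3 at 27.9, 36.7 and 56.3 CPM, and clone 19 at 22.1, 28.9 and 39.5 CPM. Clone 1 overlapped GMPs, with 2 libraries (76.3 and 73.9 CPM) above the highest of them, and clone 19 overlapped them only at its upper end. The overall log2 fold change of -0.40 (SE 0.14, adjusted p = 0.0076) was lost without clone 19 (-0.18, adjusted p = 0.25) and in endosteal libraries alone (-0.30, adjusted p = 0.098). Clone 19 was lower than GMPs by -0.85 (adjusted p = 0.00011), while for clone 1 the value was 0.16 (adjusted p = 0.42). Clone 1 exceeded clone 19 directly, by 1.02 (SE 0.20, adjusted p = 0.00043).

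**Figure D2:**
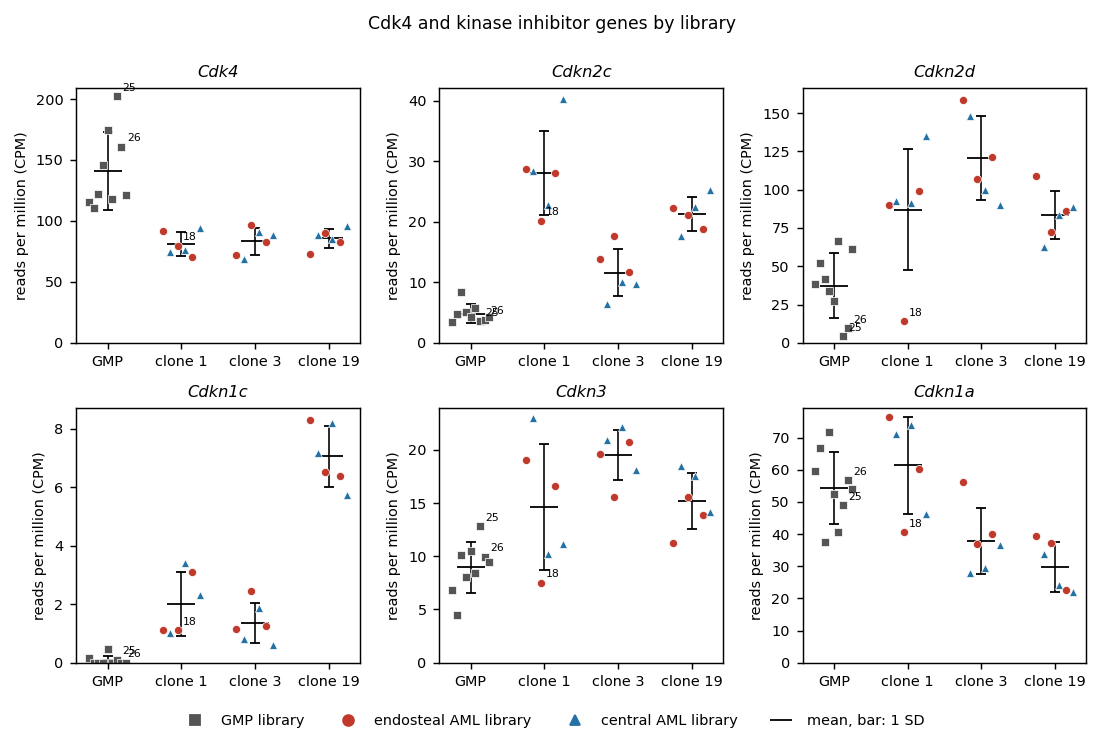
CPM (vertical axes, linear from 0) of Cdk4 and the 5 inhibitor genes in each of the 27 libraries, by group, with squares for GMP, circles for endosteal and triangles for central AML libraries, a line at the group mean and whiskers for 1 SD; libraries 18, 25 and 26 are numbered. Cdk4 lies lower in all AML libraries (68.5 to 96.4 CPM) than in all GMP libraries (111 to 202 CPM), and Cdkn1c is highest in clone 19 (5.75 to 8.30 CPM).

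Both E2F genes of the table were higher in AML, and neither was called between clones. E2f2, an activating E2F, ranged from 5.97 to 15.5 CPM in GMPs (median 12.1 CPM) and from 16.3 to 28.9 CPM in AML (median 23.2 CPM), with no overlap (log2 fold change 0.98, SE 0.13, adjusted p = 1.9e-07). E2f7, an atypical E2F that represses the targets of the activators, ranged from 1.29 to 12.2 CPM in GMPs and from 5.22 to 16.9 CPM in AML. These ranges overlapped, and the log2 fold change of 0.97 (SE 0.25, adjusted p = 0.0010) was 0.66 (adjusted p = 0.0016) without libraries 18, 25 and 26. Cdc14b, a phosphatase that counters Cdk phosphorylation, was higher without overlap, at 0.466 to 2.28 CPM in GMPs and 4.76 to 12.3 CPM in AML (log2 fold change 1.84, SE 0.14, adjusted p = 1.7e-11).

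Among the 6 genes of origins and the replicative helicase, 3 were lower in AML (Mcm7, Orc1 and Mcm8), 1 was higher (Gins2) and 2 were not called. Of all genes tested, 37% were lower and 50.7% higher. Mcm7, a subunit of the Mcm2-7 ring, had a median of 351 CPM in GMPs (165 to 515 CPM) and of 167 CPM in AML (133 to 439 CPM), with a log2 fold change of -0.86 (SE 0.17, adjusted p = 6.4e-05). The groups overlapped, and the highest AML library, at 439 CPM, was library 18. Orc1, the largest subunit of the origin recognition complex, had a median of 10.2 CPM in GMPs and 5.09 CPM in AML (log2 fold change -0.61, adjusted p = 0.0018). Gins2, part of the GINS complex that activates the helicase, was called at 0.56 (SE 0.23, adjusted p = 0.026), but at 0.32 (adjusted p = 0.051) without libraries 18, 25 and 26. Mcm3 was at 0.07 (SE 0.12, adjusted p = 0.59), a mean over clones that lay on either side of GMPs.

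In mitosis the main cyclin showed no call between AML and GMPs. Ccnb1, cyclin B1, which with Cdk1 drives the entry into mitosis, had a median of 57.05 CPM in GMPs (28.6 to 75.1 CPM) and of 55.97 CPM in AML (29.2 to 87.4 CPM), with a log2 fold change of 0.14 (SE 0.14, adjusted p = 0.35). Cenpe, a kinesin of the kinetochore, was at 0.02 (adjusted p = 0.88) and Cenpf, a kinetochore protein of late cycle, at 0.15 (adjusted p = 0.25). The groups overlapped widely for these 3 genes.

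Other mitosis genes were called in either direction. Cenph, a subunit of the constitutive centromere complex, was lower, with medians of 114 CPM in GMPs and 63.0 CPM in AML (log2 fold change -0.57, SE 0.12, adjusted p = 0.00012). Cenpv, a centromere and microtubule-associated protein, was higher by 1.2 (SE 0.25, adjusted p = 0.00013). Cdca2, which brings protein phosphatase 1 to anaphase chromatin, was higher by 0.39 (adjusted p = 0.0010), and Cdc16, a subunit of the anaphase-promoting complex, was lower by -0.50 (adjusted p = 0.00077). The condensin II subunit Ncapg2 was at -0.32 (adjusted p = 0.048) and its partner Ncapd3 at -0.34 (adjusted p = 0.080). For Kif4, the chromokinesin that acts on the anaphase spindle, the value was -0.30 (adjusted p = 0.027), and the call was lost in 16 of the alternatives tried.

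On the log2(CPM + 1) scale the largest change of the 54 genes was in a kinesin known for transport and not for division. With a pseudocount of 0.5 the low-level Cdkn1c passed it, at 2.46 against 2.00 for Kif1b. Kif1b, a motor for mitochondria and synaptic vesicle precursors (chr4:149176319-149307693), ranged from 13.1 to 20.2 CPM in GMPs (median 14.9 CPM) and from 48.8 to 76.7 CPM in AML (median 61.7 CPM). The groups were far apart and the clones close, with medians of 59.9, 60.9 and 63.8 CPM in clones 1, 3 and 19. The log2 fold change was 1.96 (SE 0.09, adjusted p = 2.3e-16). Kif1bp, the binding partner of Kif1b, was higher by 0.91 (adjusted p = 0.00086), and Kif1c, a motor of the Golgi and of vesicles, by 0.85 (adjusted p = 1.3e-06). For Kif1bp the groups overlapped, at 1.21 to 10.9 CPM in GMPs and 5.07 to 15.9 CPM in AML. Its lowest GMP values were those of libraries 25 and 26 (1.29 and 1.21 CPM). The GMP mean of Kif1bp was 5.22 CPM, or 6.35 CPM without these 2 libraries, against 9.22 CPM in AML. Kif21b, which moves along microtubules and limits their growth, was higher by 1.08 (adjusted p = 3.5e-07). Of the 10 genes of this group, 7 were higher and 3 lower in AML, where 50.7% and 37% of all genes tested were.

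Genes that share a Cdk or Cdc name without a known core role in the cycle also moved. Cdk17, a kinase of the PCTAIRE family, ranged from 7.45 to 18.9 CPM in GMPs and from 18.6 to 88.3 CPM in AML (log2 fold change 1.49, SE 0.14, adjusted p = 1.1e-09). Cdk5r1, the p35 activator of Cdk5, was higher by 1.04 (adjusted p = 0.00010), whereas its neighbour in name Cdk5rap2, a centrosome protein, was lower by -0.48 (adjusted p = 0.0023). The Cdc42-binding kinase Cdc42bpb was higher by 1.26 (adjusted p = 2.4e-07) and the Cdc42 effector Cdc42ep4 by 1.10 (adjusted p = 0.0024). For Cdc42ep4 the GMP libraries ranged from 1.29 to 13.4 CPM (median 7.07 CPM). Clone 1 overlapped them, with a median of 8.92 CPM, while the medians of clones 3 and 19 were 20.3 and 16.9 CPM. The GMP mean of Cdc42ep4 was 7.23 CPM, or 8.81 CPM without libraries 25 and 26. Cdc40, a splicing factor, was lower by -0.47 (adjusted p = 0.0022). Cdc34b was higher by 0.75 (adjusted p = 9.3e-06), but this gene is similar in sequence to Cdc34 and reads may be shared between them.

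Other genes of the same pathways, from lists fixed by function, were counted in the same fit. The preselected table held 12 of 43 listed DNA synthesis genes and 8 of 57 listed mitosis genes. It held 6 of 21 genes of Rb, DREAM and cell cycle transcription, 5 of 23 checkpoint and ubiquitin ligase genes and 12 of 19 p53 targets. Of 12 DNA synthesis genes in the table, 6 were higher in AML and 4 lower, with a median log2 fold change of 0.24. Among all genes tested, 50.7% were higher and 37% lower. Clspn, the claspin adaptor of the replication checkpoint, rose from a median of 50.9 CPM in GMPs (39.8 to 70.2 CPM) to one of 101 CPM in AML (74.4 to 138 CPM), with a log2 fold change of 0.88 (adjusted p = 5.8e-08). Pola1, the catalytic subunit of polymerase alpha, fell by 0.95 (adjusted p = 1.8e-05).

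Of 8 mitosis genes outside the family names, 6 were higher and 2 lower (median 0.59), among them the kinetochore-microtubule protein Ska2 at 0.90 (adjusted p = 4.9e-09) and cyclin F (Ccnf) at 0.86 (adjusted p = 3.7e-07). Of 6 genes of Rb, DREAM and cell cycle transcription, 5 were higher and 1 lower (median 0.58), and the 1 that fell, Tfdp2, a dimer partner of the E2Fs, was at -0.81 (adjusted p = 5.3e-06). Of 5 checkpoint and ubiquitin ligase genes, 2 were higher and 2 lower (median 0.10). Of 12 genes in the p53 list, 8 were higher and 4 lower (median 0.63), where 50.7% and 37% of all genes tested were higher and lower. Zmat3 at 1.36 (adjusted p = 4.1e-07) and Ccng1 at 0.71 (adjusted p = 1.1e-06) were on the higher side, and Perp at -0.96 (adjusted p = 2.7e-06) was on the lower. Cdkn1a, the p53 target of the inhibitor group, was lower. The median of all genes tested was 0.33, and these lists are described by counts only.

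The next comparisons set each clone against the mean of the other 2, with 51 of the 54 genes above the filter on low values (4820 genes tested). Clone 1 had the most calls. Of the 51, 20 were higher and 8 lower in clone 1, against 27.8% and 28% of all genes, and 23 and 6 without library 18. The median log2 fold change was 0.23 for the 51 genes and -0.04 for all genes. At a log2 fold change of 1 or more, 1 gene was higher (Cdk17) and 2 lower (Cdc42ep4 and Cenpv), against 8.44% and 7.07% of all genes, and the 2 lower ones missed that size without library 18 (-0.93 and -0.90).

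Mitosis genes made up part of the higher set. Of the 10 genes for cyclin B1, centromere proteins, condensins, the mitotic kinesin, Cdca2 and Cdc16, 6 were higher in clone 1 and 1 was lower (Cenpv), where 27.8% and 28% of all genes were higher and lower. The other 3 were not called (Cenph at 0.24, Cdca2 at 0.23 and Cdc16 at -0.27). Ccnb1 had a lowest, median and highest level of 47.3, 69.4 and 87.4 CPM in clone 1, of 48.99, 62.4 and 71.9 CPM in clone 3 and of 29.2, 37.7 and 47.98 CPM in clone 19. Clone 19 was the low one, touching clone 1 only at its upper end and lying within the GMP range. Clone 1 exceeded the other clones by 0.47 (SE 0.14, adjusted p = 0.0077), and clone 19 was lower than the others by -0.74 (SE 0.14, adjusted p = 0.00030).

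Cenpf showed the same order, at 51.7, 71.7 and 84.1 CPM in clone 1, 42.001, 52.96 and 57.8 CPM in clone 3 and 26.3, 45.03 and 47.1 CPM in clone 19. Clones 1 and 19 did not overlap for Cenpf. The log2 fold change was 0.62 (SE 0.15, adjusted p = 0.0026) for clone 1 and -0.58 (SE 0.15, adjusted p = 0.0044) for clone 19. Cenpe was at 0.55 (adjusted p = 0.0076) and -0.50 (adjusted p = 0.016) in these clones, and Kif4 at 0.45 (adjusted p = 0.027) and -0.42 (adjusted p = 0.045). Set directly against clone 19, clone 1 was higher for Ccnb1 by 0.81, for Cenpf by 0.80 (adjusted p = 0.0010), for Cenpe by 0.70 (adjusted p = 0.0040) and for Kif4 by 0.58 (adjusted p = 0.016). Set directly against clone 3, clone 1 was not called higher for Ccnb1 (0.14), Kif4 (0.32), Cenpf or Cenpe. The condensin genes Ncapd3 and Ncapg2 were called higher in clone 1 than in clone 3.

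The condensin subunits Ncapd3 and Ncapg2 were higher in clone 1 by 0.79 (adjusted p = 0.0037) and 0.60 (adjusted p = 0.0063). In library 18 Ncapd3 reached 42.7 CPM, and the call held without that library (0.60, adjusted p = 0.0085). Against GMPs, clone 1 was higher for Ccnb1 (0.46, adjusted p = 0.030) and Cenpf (0.56, adjusted p = 0.0033), while clone 19 was not called for either (-0.35 and -0.24). Clone 1 was not called against GMPs for Cenpe, Kif4 (0.005), Ncapd3 or Ncapg2. Clone 19 was lower than GMPs for Kif4 (-0.58) and for 1 of the 2 condensin genes.

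Mcm3 and both GINS genes were lower in clone 1. Mcm3, a subunit of the Mcm2-7 ring, had a lowest, median and highest level of 254, 364 and 382 CPM in GMPs, of 130.1, 280.4 and 329 CPM in clone 1, of 357, 397 and 456 CPM in clone 3 and of 435, 482 and 558 CPM in clone 19. All libraries of clone 1 lay below all libraries of the other clones, and all of clone 19 above all GMPs. The lowest value of clone 1 was that of library 18, and the other 5 ranged from 259 to 329 CPM. Clone 1 was lower than the other clones by -0.78 (SE 0.17, adjusted p = 0.00097), and by -0.57 (adjusted p = 5.3e-05) without library 18. Clone 19 was higher by 0.59 (SE 0.17, adjusted p = 0.0080). Against GMPs the 2 clones went in opposite directions, at -0.45 (adjusted p = 0.013) for clone 1 and 0.47 (adjusted p = 0.0084) for clone 19, and the difference between them was -0.92 (SE 0.19, adjusted p = 0.00079). The mean of clone 1 was 266 CPM, or 293 CPM without library 18. That of GMPs was 353 CPM, or 363 CPM without libraries 25 and 26. In clone 3, Mcm3 was at 0.20 against GMPs (adjusted p = 0.24).

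Both GINS genes followed Mcm3 in clone 1. Gins2 had medians of 18.2, 24.99 and 28.8 CPM in clones 1, 3 and 19, and was lower in clone 1 by -0.80 (SE 0.21, adjusted p = 0.0047), and by -0.52 (adjusted p = 0.0038) without library 18. Gins3 had medians of 8.64, 13.005 and 14.9 CPM and was lower in clone 1 by -0.59 (SE 0.13, adjusted p = 0.0014) and higher in clone 19 by 0.39 (adjusted p = 0.023). Here library 18 was the highest of clone 1, at 15.1 CPM, and the value was -0.69 (adjusted p = 0.00012) without it. The Gins3 call of clone 1 was lost in endosteal libraries alone (-0.20). Mcm7, by contrast, was at 0.50 in clone 1 (adjusted p = 0.027), and this call was lost without library 18 (0.29, adjusted p = 0.067). Thus 3 of the 6 origin and helicase genes were lower in clone 1, 1 higher and 2 not called (Orc1 and Mcm8), and in clone 19 the count was 2 higher and 0 lower. Of all genes tested, 28% were lower and 27.8% higher in clone 1, and 22.5% were higher and 22.6% lower in clone 19.

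The DNA synthesis list, which holds none of the 54 genes, gave counts of the same direction in these libraries. Of its 12 genes, 0 were higher and 9 lower in clone 1, where 27.8% and 28% of all genes were higher and lower. In clone 19, 8 were higher and 0 lower, where 22.5% and 22.6% of all genes were. The medians were -0.48 and 0.42. Recql4, a RecQ helicase, was at -0.99 in clone 1 (adjusted p = 8.4e-05) and at 1.25 in clone 19 (adjusted p = 7.8e-06), and is named here because of its values. The mitosis list had 4 of 8 genes higher and 1 lower in clone 1, and 0 higher and 3 lower in clone 19. Without library 18, the mitosis list had 3 higher and 1 lower in clone 1, and the DNA synthesis list 0 higher and 10 lower. These clones also differed in the summed GMP markers, at 2151 to 2814 CPM in clone 1 and 5442 to 6933 CPM in clone 19. Erythroblast markers (6 of 13 in the table) summed to 14.8 to 27.8 CPM in clone 1 and 46.4 to 63.7 CPM in clone 19, and stroma or endothelium markers (5 of 9) to 0.093 to 1.43 CPM and 4.61 to 9.85 CPM. Megakaryocyte markers went the other way, at 9.46 to 117 CPM in clone 1 and 4.05 to 7.83 CPM in clone 19. The part of these markers in the results was not tested.

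**Figure D3:**
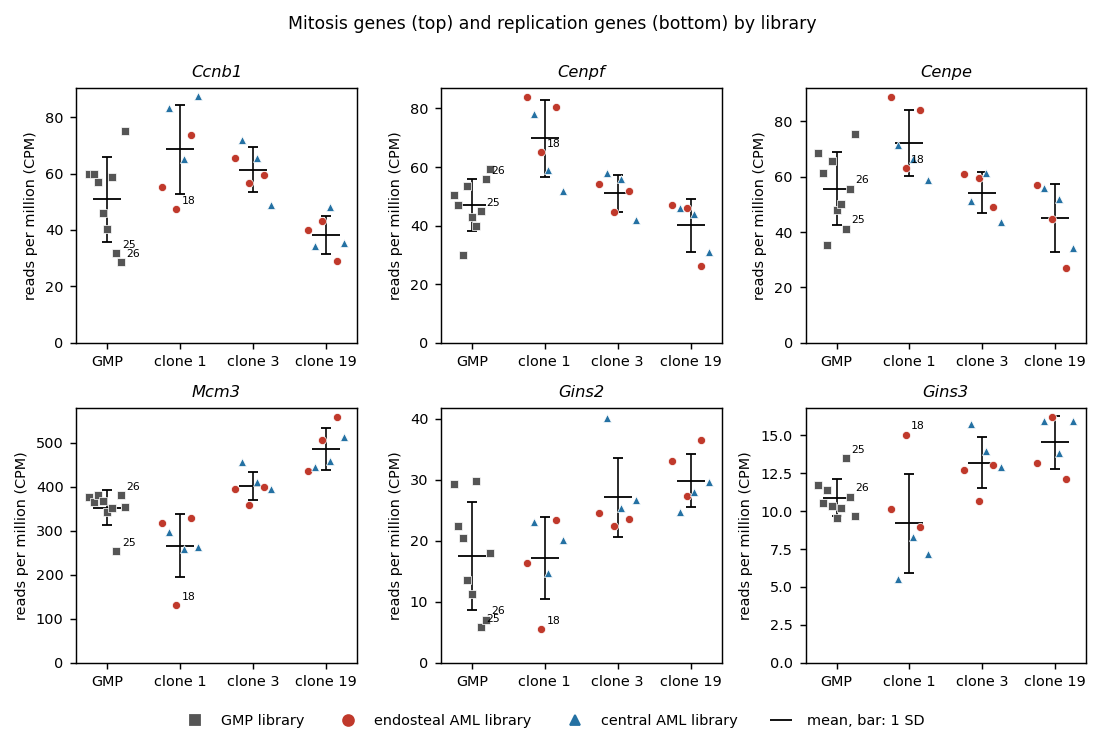
CPM (vertical axes, linear from 0) of 3 mitosis genes (top) and 3 replication genes (bottom) in each library, by group, with squares for GMP, circles for endosteal and triangles for central AML libraries, a line at the group mean and whiskers for 1 SD. Mcm3 is lowest in clone 1 (130.1 to 329 CPM) and highest in clone 19 (435 to 558 CPM), and Cenpf is highest in clone 1 (51.7 to 84.1 CPM) and lowest in clone 19 (26.3 to 47.1 CPM).

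Among the other genes of clone 1, Cdk17 had the largest increase, and Cdc42ep4 was as far below the other clones (-1.38, or -0.93 without libraries 18, 25 and 26). Cdk17 stood at 54.1, 71.4 and 88.3 CPM in clone 1 against 18.6 to 36.8 CPM in clone 3 and 22.6 to 29.4 CPM in clone 19. Clone 1 did not overlap the other clones (log2 fold change 1.37, SE 0.14, adjusted p = 7.5e-07). The inhibitors Cdkn2c and Cdkn1a were higher in clone 1 by 0.80 (adjusted p = 0.00035) and 0.85 (adjusted p = 0.00060). Kif21b was higher by 0.83 (adjusted p = 0.00024), and Kif1c by 0.72 (adjusted p = 0.0023), where library 18 reached 124 CPM and the other 5 ranged from 41.5 to 52.3 CPM. Kif17, a motor known from neuronal dendrites and picked here once its values were known, was higher without overlap by 0.97 (adjusted p = 1.0e-05). Of the 28 calls of clone 1, 5 were kept in every alternative tried, and a fit on endosteal libraries alone called 9 genes.

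Clone 3 had the fewest calls of the clones. Of the 51 genes, 2 were higher and 8 lower, against 12.9% and 14.9% of all genes, and at a log2 fold change of 1 or more there were 0 higher and 4 lower (Plk3, Plk2, Cdkn1c and Cdkn2c), against 3.94% and 4.13%. Plk2, a Polo-like kinase of centriole duplication and the stress response, had a lowest, median and highest level of 0.302, 0.791 and 1.16 CPM in clone 3, with 1.82 to 3.20 CPM in clone 1 and 2.16 to 3.75 CPM in clone 19. Clone 3 lay below all libraries of the other clones (log2 fold change -1.11, SE 0.13, adjusted p = 1.2e-05), at a level of a few reads per library. Cdkn2c was lower in clone 3 by -1.05 (SE 0.15, adjusted p = 7.2e-05) and Cdkn1c by -1.07 (SE 0.20, adjusted p = 0.00072). Of the clones, clone 3 was nearest to the GMP level in both inhibitors, which were still higher than in GMPs by 1.10 and 1.08.

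Plk3, a Polo-like kinase induced by stress and growth factors, had regions without overlap in clones 3 and 19. In clone 3 its 3 endosteal libraries held 18.2, 11.3 and 5.37 CPM and its 3 central libraries 1.01, 2.02 and 2.64 CPM. In clone 19 the endosteal libraries ranged from 13.3 to 18.8 CPM and the central ones from 10.6 to 11.6 CPM. In clone 1 the central libraries, at 13.8 to 19.7 CPM, overlapped the endosteal ones, at 3.21 (library 18) to 16.5 CPM. Clone 3 was lower than the other clones by -1.29 (SE 0.27, adjusted p = 0.0019). The difference of the region effect between clones was not called by limma (adjusted p = 0.71), and DESeq2 on whole reads gave an adjusted p of 0.012.

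In clone 19, 6 of the 51 genes were higher and 12 lower than in the other clones, against 22.5% and 22.6% of all genes. At a log2 fold change of 1 or more, 2 were higher (Cdkn1c and Cenpv) and 0 lower, against 7.1% and 6.51%. Cenpv ranged from 30.8 to 41.7 CPM in clone 19 (median 37.05 CPM), from 15.8 to 26.6 CPM in clone 3 and from 1.42 to 20.9 CPM in clone 1, without overlap of clone 19 (log2 fold change 1.32, SE 0.27, adjusted p = 0.00085). The lower genes held Ccnb1, Cenpf, Cenpe, Kif4 and Cdca2 of mitosis and Cdkn1a. Cdk10, a kinase of transcription and ciliogenesis also picked once its values were known, ranged from 29.5 to 36.1 CPM in clone 19, above all libraries of the other clones (log2 fold change 0.65, adjusted p = 0.0011).

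Set against GMPs 1 clone at a time, with the same 9 GMP libraries in each comparison, clone 1 was higher in 25 of the 54 genes and lower in 11, where 38.4% and 27.5% of all genes were higher and lower. Clone 3 was higher in 26 and lower in 18 (46.2% and 36.6% of all genes), and clone 19 was higher in 26 and lower in 14 (47.1% and 36.9%). The heat map of the clones against GMPs shows which genes these were: Cdk4, the inhibitors Cdkn1c, Cdkn2c, Cdkn2d and Cdkn3, Cdc14b, both E2F genes and Kif1b were called in each clone and in the same direction. Of the 45 genes picked by the naming rules, Mcm3 was the gene called in opposite directions in clones 1 and 19.

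**Figure D4:**
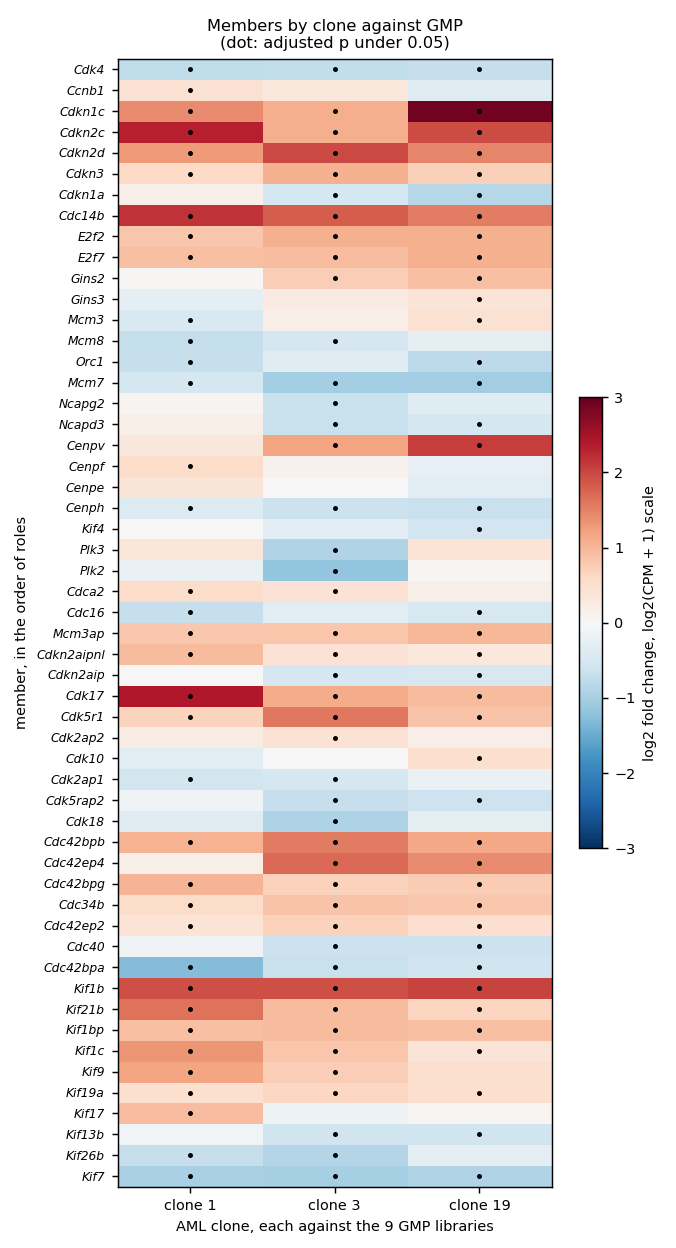
Heat map of the log2 fold change (colour, log2(CPM + 1) scale, red higher) of each clone against the 9 GMP libraries (columns) for the 54 genes in the order of their roles (rows), with a dot at an adjusted p under 0.05. Cdk4 and Kif1b have 1 colour in the 3 clones, whereas Mcm3 is blue in clone 1 (-0.45) and red in clone 19 (0.47).

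The last comparison set endosteal against central AML cells within clones, 9 libraries in each region. Of the 51 genes 0 were called, against 0% of all 4820 genes, with 0 of the 51 and 223 of all genes at an unadjusted p under 0.05 in limma. On whole reads edgeR called 0 of all genes, with 1 of the 51 and 264 of all genes at an unadjusted p under 0.05. DESeq2 called 1 of all genes and 0 of the 51, with 3 of the 51 and 299 of all genes at an unadjusted p under 0.05. The 51 log2 fold changes ranged from -0.54 to 0.55, with a median of 0.01. Those with the smallest p in limma were Ncapd3 at 0.43 (SE 0.21), Orc1 at 0.25 (SE 0.13) and Cenpv at -0.54 (SE 0.27), each with an adjusted p of 0.887. For Ncapd3 the endosteal libraries ranged from 7.35 to 42.7 CPM and the central ones from 5.53 to 14.5 CPM, and the highest was library 18. Orc1 ranged from 4.32 to 8.87 CPM in endosteal and from 3.31 to 6.76 CPM in central libraries, which overlapped. A difference of the region effect between clones was called by limma for 0 of the 51 genes, against 0% of all genes. In limma, 6 of the 51 and 289 of all 4820 genes had an unadjusted p under 0.05. The edgeR test also called 0, with 6 of the 51 and 284 of all genes at an unadjusted p under 0.05. DESeq2 called 1 of the 51 (Plk3) and 6 of all genes. In DESeq2, 8 of the 51 and 439 of all genes had an unadjusted p under 0.05. With 9 libraries a region these counts do not show that the regions were alike.

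**Figure D5:**
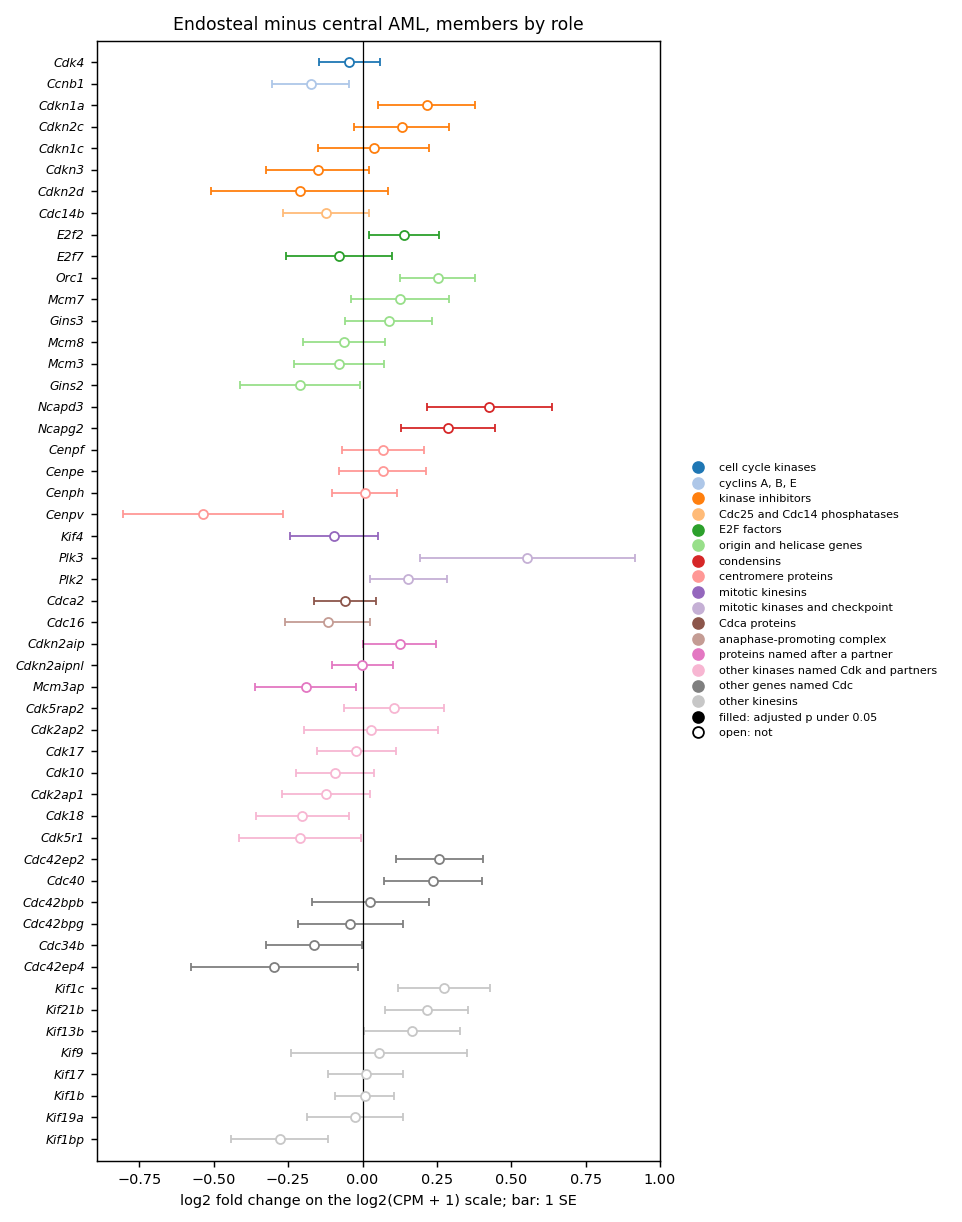
Log2 fold change of endosteal against central AML cells (horizontal axis, log2(CPM + 1) scale) for the 51 genes tested, coloured by role, with bars for 1 SE and open points for an adjusted p of 0.05 or more. The values lie between -0.54 and 0.55, and all points are open.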

How the data were processed

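RNA of 18 AML and 9 GMP samples was sequenced with QuantSeq. The authors trimmed reads with Cutadapt 1.9, mapped them to mm10 with HISAT2 and counted genes with featureCounts (annotation and strand setting not given in the sources used here, so antisense and overlapping genes cannot be told apart). The deposited values are CPM per library, rounded by the authors. The table also holds the authors' log2 fold changes against GMP and mean log2 CPM (voom and limma) and their adjusted p-value, which selected the 5486 deposited genes and whose contrast is not named in the sources used here; none of these was used.

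The 54 genes were taken by name, with Cdkn2a and a Cdk3 pseudogene left out. Members and lists were chosen with earlier results of these data known. Values were log-transformed, log2(CPM + 1), and fitted in limma (version 3.58.1, under R 4.3.3; trended prior variance, two-sided, Benjamini-Hochberg adjustment over all genes with at least 1 CPM in 3 libraries). AML was the mean of the 6 clone and region groups; each clone was compared with the mean of the others with region in the fit, and regions with clone in the fit. Clone against GMP and clone against clone came from the same fits, the latter added after the data were seen. A call was an adjusted p under 0.05, and where stated a log2 fold change of 1 or more. Whole reads were recovered from the CPM steps of the 27 libraries (100% of values within 0.1 read of a whole number; in 3 libraries the step lies near 0.1 CPM, a multiple of the rounding) and tested with edgeR 4.0.16 and DESeq2 1.42.0. The scripts were tested on simulated data.

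For AML against GMP and for each clone, genes named are those with the smallest p among calls with a log2 fold change of 1 or more. Up to 8 in each direction were taken for AML against GMP and 5 for a clone, so no gene lower in AML was named by this part. For region and interaction, up to 4 in each direction were taken by p, called or not. Also named are up to 4 members with the highest mean CPM in each role, core cycle genes present in the table, and up to 4 genes with the smallest p in each list. Alternatives were pseudocounts of 0.5 and 3, no filter and one at 5 CPM, TMM and quantile scaling, each library, clone or control set left out, and 1 region alone. Leaving out libraries 18, 25 and 26 together, or library 3, was chosen after seeing the data. Promoters came from the RefSeq table for GRCm38.p6, and gene coordinates from Gencode M21 on mm10.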

Additional observations from a re-analysis of the deposited data

Results flagged for a closer look

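The 45 genes picked by the naming rules were screened, and the other 9 of the 54 were not. Of the 180 groups of 6 or 9 libraries, 13 had 1 library far from the rest of its group, where chance gives about 9 (1 in 20). Library 18 (clone 1, endosteal) was that library in 7 of them: Cdk2ap1 at 32.9 CPM (the others 63.4 to 76.0 CPM), Cdkn2d at 14.3 CPM (89.9 to 135 CPM), Cenph at 50.4 CPM (72.1 to 83.6 CPM), Kif1c at 124 CPM (41.5 to 52.3 CPM), Mcm3 at 130.1 CPM (259 to 329 CPM), Mcm7 at 439 CPM (149 to 256 CPM) and Plk3 at 3.21 CPM (13.8 to 19.7 CPM).

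The other 6 lay in 6 different libraries. In GMPs, Cdkn1c reached 0.467 CPM in library 23 (the others 0 to 0.163 CPM), Cdkn2c reached 8.48 CPM in library 9 and Mcm3 was at 254 CPM in library 25 (the others 344 to 382 CPM). In clone 3, Cdc34b was at 35.4 CPM in library 6 (the others 16.7 to 22.1 CPM) and Gins2 at 40.02 CPM in library 2 (22.3 to 26.6 CPM). In clone 19, Cdk18 was at 2.00 CPM in library 15 (0.576 to 1.07 CPM). Among the same 45 genes, differences of clones 1 and 19 against GMPs in opposite directions stood out for Mcm3. Its values were -0.45 and 0.47, with a tested difference of -0.92 on the log2 scale.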

How the results depend on the processing

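Of the 45 genes called between AML and GMPs, 34 kept their call in every alternative, against 5 of 28 for clone 1, 1 of 10 for clone 3 and 4 of 18 for clone 19. The 11 genes at a log2 fold change of 1 or more between AML and GMPs became 17 with a pseudocount of 0.5, 6 with a pseudocount of 3, 17 in edgeR (13 higher and 4 lower) and 18 in DESeq2 (11 higher and 7 lower); all genes called so rose from 1580 in limma to 2435 in edgeR and 2437 in DESeq2. For clone 1 the 3 such genes became 5 in edgeR, 6 in DESeq2, 5 in endosteal and 5 in central libraries alone, and 1 without libraries 18, 25 and 26. For clone 3 the 4 became 0 with a pseudocount of 3 and 0 in endosteal libraries alone, and for clone 19 the 2 became 1 in central libraries alone. With adjusted p alone, the fit on endosteal libraries called 9 genes for clone 1 (28 with all libraries), 1 for clone 3 (10) and 5 for clone 19 (18), with fewer libraries. The interaction went from 0 to 1 in DESeq2, where 6 of all genes were called. Leaving out 1 library gave 10 to 13 genes (adjusted p alone, 41 to 47) for AML against GMPs, 1 to 4 (25 to 29) for clone 1, 3 to 4 (8 to 12) for clone 3, 2 to 2 (13 to 23) for clone 19, and 0 to 0 for region and interaction; the 1 for clone 1 was without library 18. Direction turned for Kif17 in AML against GMP without clone 1 (-0.042, adjusted p = 0.77) and for Plk3 in clone 3 against GMP in endosteal libraries alone (0.11, adjusted p = 0.83). Beyond those named, the cause of these changes was not tested. No paired analysis was possible because the columns match the groups and do not say which libraries share a mouse. Genes near or below 1 CPM, such as Plk2 in clone 3, rest on few reads, and a gene left out by the preselection of the table cannot be judged.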
